A study of Mus musculus with 21 samples.

Results

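Chamber hypoxia and incubator hypoxia were compared in B16-F10 cells, a pigmented melanoma line of C57BL/6J mice, by asking for each gene how far its response to low oxygen differed between the devices. The measure was the log2 change in the chamber set minus the mean of the log2 changes in the incubator sets, a difference of differences in log2 units that is negative where the chamber response was lower. It used 15 of the 21 arrays of the series and 10833 of 12488 probe sets, those annotated to a single gene, which represent 8251 genes. All cells were grown in RPMI medium with fetal bovine serum. Controls were kept in 21% oxygen, with no duration stated, and hypoxia meant 1% oxygen for 24 h. The chamber set held 2 control arrays and 3 arrays from a Billups-Rothenberg chamber, a closed vessel flushed with gas. Experiments 1 and 2 each held 2 control arrays and 3 arrays from an incubator that regulates oxygen by gas flow. The remaining 6 arrays, from cobalt chloride (CoCl2) treatment and its controls, did not enter the comparison. The controls called chamber controls here were taken as such because their titles carry no experiment number; no label ties them to the chamber arrays, and every difference below rests on that reading. Each device was used in sets of its own, so device and set cannot be told apart. The labels call the arrays of a group biological replicates without saying that cultures were grown apart, so p-values reflect array-to-array spread, part of which may be technical, and the number of arrays limits their precision.

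Cells sense oxygen through prolyl hydroxylases, which mark the alpha subunit of the hypoxia-inducible factor (HIF) for destruction while oxygen is present. In low oxygen HIF accumulates and switches on genes of glucose uptake, glycolysis, blood vessel growth and mitochondrial clearance. Prolonged lack of oxygen also lowers costly processes such as ribosome assembly and protein synthesis, in part through the integrated stress response. Both arms are measured here in a line in which some melanocyte genes were strongly expressed. Pmel, Dct and Tyrp1, which encode melanosome proteins, had mean log2 values of 12.4, 11.7 and 11.04 over the 15 arrays. They were the highest of 16 melanocyte markers measured, whose median was 7.69, against 5.99 over all genes. Kit (3.88) and Ednrb (2.46) were the lowest. Of the 16 markers, S100b alone, described below, was called for chamber minus incubator (6.25% higher, against 2.35% of all genes). The median difference of the 16 was 0.18, against 0.05 over all genes. Mitf (-0.44), Mc1r (0.41) and Trpm1 (0.38) did not pass the test.

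Several properties of the arrays moved with the comparison and are given before the genes. Of 9 bacterial and phage control probe sets (BioB, BioC, BioDn and CreX), all had a negative difference of differences, from -0.52 to -0.23 with a median of -0.39. Their mean per array was 7.76 and 7.86 in the chamber controls and 7.67 to 7.79 in chamber hypoxia, against 7.23 and 7.30 in the controls and 7.47 to 8.07 in hypoxia of experiment 1, and 7.71 and 7.75 in the controls and 7.82 to 8.02 in hypoxia of experiment 2. Differences also varied with signal: the median over genes was 0.11 in the lowest of 5 equal bins of mean value and -0.15 in the highest, and these bins held 10 and 227 of the genes called lower in the chamber, 0.606% and 13.8% of their genes. The 3' minus 5' signal of Actb, a measure of RNA integrity, lay between 0.15 and 0.50 on all 15 arrays. The part of these properties in the results was not tested beyond the fits with a covariate or another scaling given below.

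Of 8251 genes, 732 (8.87%) responded differently in the chamber set than in the incubator sets at an adjusted p under 0.05 (limma, Benjamini-Hochberg over all single-gene probe sets). The response was lower in the chamber for 538 genes (6.52%) and higher for 194 (2.35%), and the median difference over all genes was 0.05. The split depended on the scaling of the arrays, with 826 lower and 112 higher after median centring and 380 lower and 246 higher after quantile normalisation. With the 6 arrays of experiment 3 also in the model, 118 genes remained called, 100 lower and 18 higher, all of them among the 732. The median standard deviation of a gene within groups was 0.18 in experiment 3 and 0.09, 0.12 and 0.11 in the chamber set and experiments 1 and 2.

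The difference rested on experiment 1 more than on experiment 2. The chamber response differed from that of experiment 1 for 865 genes (10.5%), 596 lower (7.22%) and 269 higher (3.26%), and from that of experiment 2 for 86 genes (1.04%), 69 lower (0.836%) and 17 higher (0.206%). Experiments 1 and 2, run in the same type of device, differed from each other for 87 genes (1.05%), 59 lower (0.715%) and 28 higher (0.339%) in experiment 1. These 3 comparisons involve the same numbers of arrays and share sets. The counts for chamber minus experiment 2 and experiment 1 minus experiment 2, close here at 86 and 87, went either way in other settings: 308 and 50 with array weights, 117 and 51 after median centring, 6 and 21 with all 21 arrays, and 6 and 41 without chamber control 2. Among the 538 genes lower in the chamber, 447 lay farther from experiment 1 than from experiment 2, and so did 134 of the 194 genes higher there, against 55.6% of all genes.

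**Figure D1:**
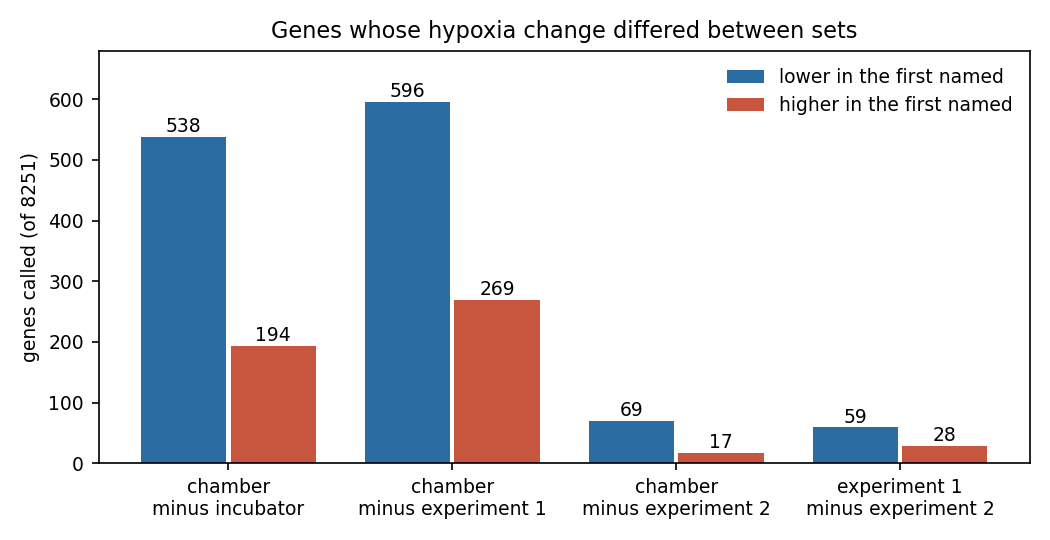
Bars give the number of genes, of 8251 tested, whose log2 hypoxia change differed at an adjusted p under 0.05 in each pair of sets, split by direction. Chamber minus experiment 1 gave 596 lower and 269 higher, while chamber minus experiment 2 (69 and 17) and experiment 1 minus experiment 2 (59 and 28) gave far fewer.

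The count also rested on the 2 chamber controls. It fell to 178 without chamber control 1 and to 108 without chamber control 2, to 416 and 311 without chamber hypoxia arrays 1 and 2, and otherwise lay between 491 and 1033. In all, 86 genes kept the call without each of the 15 arrays in turn, 78 lower and 8 higher. Of the 121 called genes that the naming rule selected, 37 were among them, 30 lower and 7 higher, and the other 84 lost the call without a chamber control. All 37 were also called with the mean spike-in control signal as a covariate and after cyclic loess scaling, both chosen after seeing the data, and 32 of them were called with 21 arrays. Below, a gene is said to have kept its call when no single array removed it; otherwise the adjusted p that removed it is given.

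**Figure D2:**
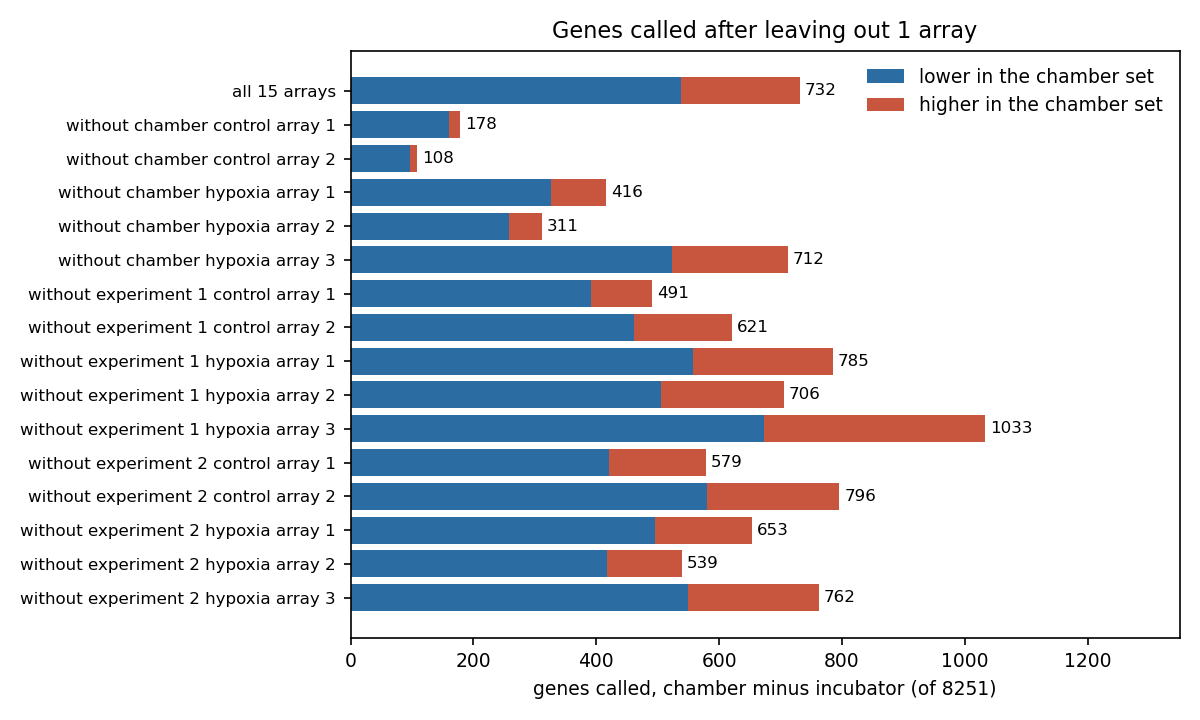
Each bar gives the genes called for chamber minus incubator (x axis, of 8251) with all 15 arrays or after 1 array was left out, split by direction. The shortest bars are those without chamber control 1 (178) and chamber control 2 (108), and the longest is that without experiment 1 hypoxia array 3 (1033).

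The actin and adhesion genes held the largest single difference. Dstn encodes destrin, which severs actin filaments and speeds their turnover. Its log2 values were 9.06 and 9.09 in the chamber controls and 9.18, 9.29 and 9.41 in chamber hypoxia. In experiment 1 they were 8.33 and 8.49 in controls and 10.38, 10.64 and 10.50 in hypoxia, and in experiment 2 they were 8.55 and 8.68 in controls and 10.01, 9.91 and 9.97 in hypoxia. Chamber controls were above all other controls and chamber hypoxia arrays below all other hypoxia arrays. Dstn thus rose 3.30-fold in the incubator, while its 1.16-fold difference in the chamber did not pass the test (adjusted p = 0.12), and the difference between devices was -1.51 ± 0.12 (SE; limma adjusted p = 4.4e-06).

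Vcl encodes vinculin, which links integrin adhesions to actin. Its values were 6.70 and 6.63 in chamber controls and 8.51, 8.87 and 8.79 in chamber hypoxia, 6.20 and 5.98 against 9.45, 9.82 and 9.40 in experiment 1, and 5.86 and 6.07 against 8.93, 8.81 and 8.98 in experiment 2. Vcl rose in every set, with hypoxia arrays far above controls, but from a higher control level in the chamber set, and its hypoxia values there overlapped those of experiment 2. The difference was -1.15 ± 0.16 (limma adjusted p = 0.00091), and the other Vcl probe set gave -1.03. Cnn2, which encodes the actin-binding protein calponin 2, also rose less in the chamber: it rose by 1.85 in the chamber, 3.05 in experiment 1 and 2.65 in experiment 2, a difference of -0.996 ± 0.13 (limma adjusted p = 0.0006). Dstn, Vcl and Cnn2 kept their calls. In experiment 3, the mean change with CoCl2 over both doses, against controls of that experiment, was 0.32 for Dstn, -0.22 for Vcl and -0.54 for Cnn2.

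Vcl and Cnn2 share a CArG box, the site read by serum response factor in many cytoskeletal genes, in the 250 bases before an annotated start (RefSeq, GRCm38.p6), at chr14:20929148-20929397 on the plus strand for Vcl and chr10:79988350-79988599 on the plus strand for Cnn2. The sequences are shown because these genes differed together; capitals mark the CArG box, searched on both strands and the same in both genes.
Vcl: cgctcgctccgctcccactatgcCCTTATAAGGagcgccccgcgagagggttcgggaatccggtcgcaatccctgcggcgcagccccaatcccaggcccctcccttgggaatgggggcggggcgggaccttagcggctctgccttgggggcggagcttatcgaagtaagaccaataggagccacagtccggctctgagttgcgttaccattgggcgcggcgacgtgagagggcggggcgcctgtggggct
Cnn2: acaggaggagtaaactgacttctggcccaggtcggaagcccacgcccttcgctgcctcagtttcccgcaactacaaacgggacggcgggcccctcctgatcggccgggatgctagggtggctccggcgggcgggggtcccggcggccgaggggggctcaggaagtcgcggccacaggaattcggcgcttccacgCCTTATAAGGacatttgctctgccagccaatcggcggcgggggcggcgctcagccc
A CArG box lay in the windows (250 bases before to 50 after a start) of 9 of 67 actin and adhesion genes with a window (13.4%), 2.61% of genes lower in the chamber, 2.04% of those higher and 1.92% of all 6576 genes with a window. The Dstn window had none. A match is a description of the letters and shows no binding.

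Of 76 actin and adhesion genes measured, 13 were lower in the chamber (17.1%) and 0 higher, against 6.52% and 2.35% of all genes. In bin 4 of 5 by signal, where the median level of this list (7.44) lay, 10.2% were lower. The median difference was -0.11 against 0.05 over all genes, 3 of the 13 kept the call and 6 were called with 21 arrays. Of the 76 differences 45 were negative, as were 3511 of all 8251. The median change of the list was 0.18 in the chamber, 0.23 in experiment 1 and 0.32 in experiment 2. Ilk, the integrin-linked kinase gene (-0.74 ± 0.15), lost its call without either chamber control (limma adjusted p = 0.078 and 0.051). Ccn2, which encodes a secreted matrix protein, rose by 2.50 in the chamber, 4.05 in experiment 1 and 2.38 in experiment 2; its difference of -0.72 lost the call without 9 of the 15 arrays (limma adjusted p up to 0.18) and was called against experiment 1 (limma adjusted p = 0.00084) but not against experiment 2 (limma adjusted p = 0.80).

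Genes of vessel growth and secreted factors included 2 of the largest differences. Adm encodes adrenomedullin, a vasodilator peptide and HIF target. Its values were 4.22 and 4.29 in chamber controls and 6.12, 5.77 and 6.16 in chamber hypoxia. In experiment 1 they were 4.16 and 3.99 in controls and 6.86, 7.20 and 6.82 in hypoxia, and in experiment 2 they were 3.997 and 4.25 against 7.39, 7.54 and 6.97. Controls overlapped between sets, while every chamber hypoxia array lay below every incubator hypoxia array. Adm rose 3.38-fold in the chamber and 8.18-fold in the incubator, a difference of -1.27 ± 0.19 (limma adjusted p = 0.0014).

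Vegfa encodes vascular endothelial growth factor A. Its values were 5.10 and 5.04 in chamber controls and 7.06, 6.51 and 6.99 in chamber hypoxia, 5.16 and 5.02 against 8.01, 8.30 and 8.28 in experiment 1, and 5.13 and 4.93 against 7.57, 7.81 and 7.69 in experiment 2. As for Adm, only the hypoxia arrays stood apart: Vegfa rose 3.44-fold in the chamber and 7.38-fold in the incubator (difference -1.10 ± 0.17, limma adjusted p = 0.0016). Adm and Vegfa kept their calls, and both also differed from experiment 2 alone (limma adjusted p = 0.0066 and 0.046). Of 42 vascular and secreted factor genes measured, 4 were lower (9.52%) and 1 higher (2.38%) in the chamber, shares near those over all genes (6.52% and 2.35%), and the median difference was 0.11.

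**Figure D3:**
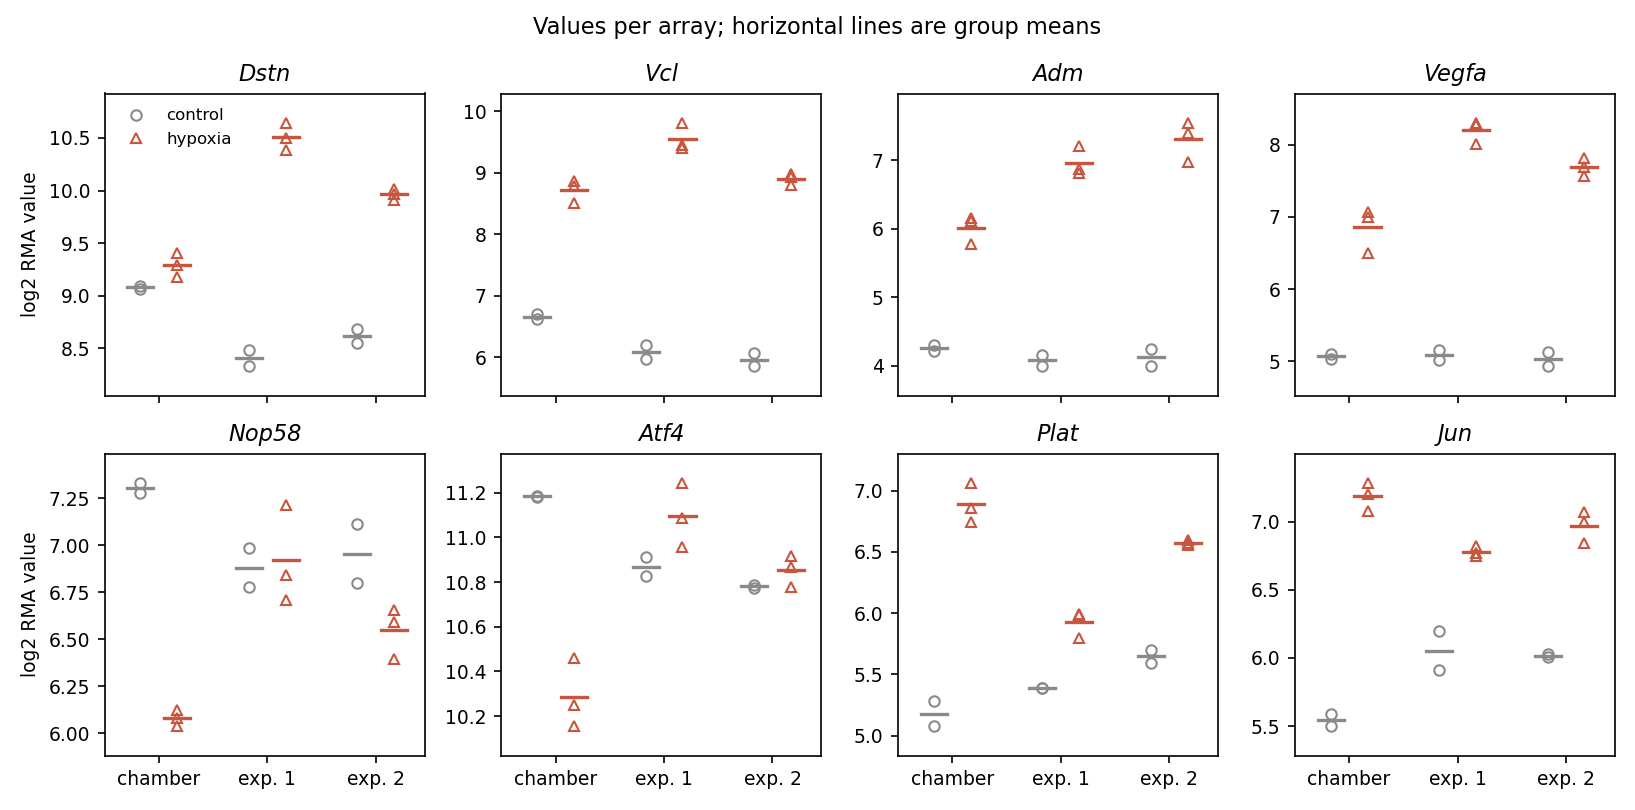
Log2 RMA values of 8 genes on each of the 15 arrays, with controls as circles, hypoxia as triangles and group means as lines. Vcl, Adm and Vegfa rose less in the chamber, Dstn had a log2 change of 0.21 there against 2.10 and 1.35 in the incubator, Nop58 and Atf4 were lowest on the chamber hypoxia arrays, and Plat and Jun were highest there.

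Most HIF targets were not called different, as held for 7519 of all 8251 genes. The median change of 37 other HIF targets was 1.19 in the chamber, 1.17 in experiment 1 and 1.23 in experiment 2, and the median difference was -0.02. Of these, 3 genes were lower in the chamber (8.11%) and 1 higher (2.70%), shares near those over all genes (6.52% and 2.35%). Among 30 genes of glycolysis and glucose uptake, 3 were lower (10%) and 1 higher (3.33%), with median changes of 0.48, 0.51 and 0.56 in the 3 sets. Egln1, which encodes the oxygen-sensing prolyl hydroxylase PHD2, a HIF target that feeds back on HIF, rose from 7.97 and 7.84 to 9.99, 10.06 and 10.05 in the chamber, from 8.05 and 7.82 to 9.97, 10.02 and 9.93 in experiment 1, and from 8.01 and 7.87 to 10.12, 10.05 and 10.09 in experiment 2. Its arrays overlapped in all sets, and the difference of 0.03 had a 95% interval of -0.20 to 0.27. The glycolytic kinase gene Pgk1 gave -0.21 (95% interval -0.44 to 0.02), and Hif1a, the oxygen-regulated HIF subunit, -0.33 (limma adjusted p = 0.090). Of 18 genes of the HIF pathway and its feedback, 11.1% were lower and 5.56% higher. Kdm3a, a histone demethylase (-0.45), and Siah1a, a ubiquitin ligase (-0.38), were lower and Hif3a, a HIF family member, was higher (0.58).

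The glycolytic genes and HIF targets that did differ went both ways. Slc2a1, which encodes the glucose transporter GLUT1, rose from 6.50 and 6.42 to 8.55, 8.43 and 8.56 in the chamber, from 6.94 and 6.64 to 9.49, 9.56 and 9.64 in experiment 1, and from 6.78 and 6.59 to 9.05, 9.07 and 8.86 in experiment 2. All chamber values were below their incubator counterparts, and the difference was -0.49 ± 0.13 (limma adjusted p = 0.030). Bnip3, a mitophagy receptor gene, rose from 5.66 and 5.34 to 8.51, 8.52 and 8.85 in the chamber, from 6.21 and 6.07 to 8.07, 7.90 and 7.74 in experiment 1, and from 5.17 and 5.42 to 8.52, 8.73 and 8.77 in experiment 2. Here experiment 1 stood apart and chamber and experiment 2 overlapped; the difference from the incubator mean was 0.56 ± 0.16 (limma adjusted p = 0.045), from experiment 2 alone not called (limma adjusted p = 0.44). Slc2a1 lost its call without 6 of the 15 arrays and Bnip3 without 11 (limma adjusted p up to 0.14 and 0.27). The phosphofructokinase gene Pfkp (-0.67), the lactate transporter gene Slc16a1 (-0.63), the natriuretic peptide gene Nppb (-0.64), the desmosome gene Pkp2 (-0.56) and the aryl hydrocarbon receptor gene Ahr (-0.64) were lower and the aldolase gene Aldoc (0.50) higher. Each lost its call without a chamber control, and so did Kdm3a, Siah1a and Hif3a; the highest adjusted p of these 9 genes without 1 array lay between 0.089 and 0.19.

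The core of the hypoxia response element, ACGTG, was found before the start of Slc2a1 (chr4:119108495-119108744, plus strand) and Bnip3 (chr7:138909507-138909756, minus strand) in RefSeq sequence of GRCm38.p6. Both are shown because these targets carry the element and were called in opposite directions for chamber minus incubator. Bnip3 was not called against experiment 2 alone (limma adjusted p = 0.44). ACGTG also lay before the start of Egln1 and Pgk1, which were not called. Capitals mark ACGTG on either strand, which in Bnip3 overlaps itself as the E-box CACGTG.
Slc2a1: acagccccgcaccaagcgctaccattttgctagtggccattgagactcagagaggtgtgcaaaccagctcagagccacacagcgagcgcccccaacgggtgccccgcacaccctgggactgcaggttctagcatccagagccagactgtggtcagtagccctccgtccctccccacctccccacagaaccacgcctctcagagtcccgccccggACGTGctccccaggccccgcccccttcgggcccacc
Bnip3: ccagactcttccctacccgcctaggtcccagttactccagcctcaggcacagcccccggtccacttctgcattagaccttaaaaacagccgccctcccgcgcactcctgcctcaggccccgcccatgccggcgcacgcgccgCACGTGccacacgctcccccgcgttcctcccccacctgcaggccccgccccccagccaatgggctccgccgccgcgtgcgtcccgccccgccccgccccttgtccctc
Within the windows, ACGTG was found for 63.3% of other HIF targets, 34.6% of genes lower in the chamber, 25.9% of genes higher there and 27.8% of all genes. It was not in the windows of Adm.

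Genes that build ribosomes were the most numerous group lower in the chamber. The 4 lists on RNA polymerase I, the small nucleolar ribonucleoproteins that modify ribosomal RNA, and the processing of the small and large subunit, held 113 measured genes, of which 54 (47.8%) were lower in the chamber and 0 higher, against 6.52% lower over all genes and 13.8% in the bin of highest signal. Falls were called for 19.5% of all genes in the chamber, 14.6% in experiment 1 and 10.7% in experiment 2, and rises for 12.3%, 10.3% and 10.2%, in all 31.8%, 24.9% and 20.9%. In these lists the median change was -0.50 in the chamber, -0.01 in experiment 1 and -0.22 in experiment 2; 81 of 113 fell in the chamber, 23 in experiment 1 and 42 in experiment 2. Set against experiment 1 alone 65 of the 113 were lower, and against experiment 2 alone 11, while 2 differed between experiments 1 and 2. The shares of all genes in these comparisons were 7.22%, 0.836% and 1.05%. Of the 54, 15 kept the call and 15 were called with 21 arrays. Their control level was higher in the chamber set for 15 of the 54 and their hypoxia level lower for 45, against 8.24% and 12.5% of all genes. The larger count was among hypoxia arrays, but these counts favour them, as each group has 3 hypoxia arrays against 2 controls.

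Among the snoRNP genes 11 of 16 were lower (median difference -0.47). Nop58 encodes a core protein of the box C/D particles that methylate ribosomal RNA. Its values were 7.28 and 7.33 in chamber controls and 6.04, 6.08 and 6.12 in chamber hypoxia, 6.78 and 6.99 against 6.84, 7.21 and 6.71 in experiment 1, and 6.80 and 7.11 against 6.65, 6.40 and 6.59 in experiment 2. Only in the chamber set was the fall larger than 1 log2 unit, and the chamber arrays were the highest controls and the lowest hypoxia arrays (difference -1.04 ± 0.16, limma adjusted p = 0.0016). Its partner gene Nop56 fell in all sets, with log2 changes of -1.63, -0.74 and -1.11 (difference -0.71); its call was lost without chamber control 2 (limma adjusted p = 0.066), and another probe set gave -0.17. Ftsj3, a ribosomal RNA methyltransferase gene of the large subunit, had one of the largest differences (-1.19 ± 0.18, limma adjusted p = 0.0014) and kept its call, but another probe set gave 0.02.

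For the small subunit 18 of 35 genes were lower (median -0.44) and for the large subunit 22 of 46 (median -0.45). Fcf1 (-0.80), Dnttip2 (-0.80) and Utp18 (-0.73), all of the small-subunit processome, kept their calls; another Utp18 probe set gave 0.34. Pno1, which acts late in small-subunit assembly (-0.76), lost its call without either chamber control (limma adjusted p up to 0.085). Of the large-subunit factors, Nifk (-1.03), Ebna1bp2 (-0.95) and Rsl1d1 (-0.91) kept theirs. Nifk values were 5.31 and 5.62 in chamber controls and 4.62, 4.68 and 4.79 in chamber hypoxia, but 4.86 and 5.04 against 5.32, 5.65 and 5.30 in experiment 1, and 5.25 and 5.46 against 5.23, 5.62 and 5.37 in experiment 2. Nifk and Rsl1d1 thus fell in the chamber and rose in experiment 1, with the chamber values of Rsl1d1 going from 8.81 and 8.73 to 8.14, 8.19 and 8.23, and another Rsl1d1 probe set gave -0.22. In the RNA polymerase I list 4 of 17 genes were lower, and none of them, among them the initiation factor gene Rrn3 (-0.54), kept the call (limma adjusted p for Rrn3 up to 0.16). Of the genes for ribosomal proteins themselves, 3 of 33 were lower (9.09%). That share was below the 13.8% in the bin of highest signal, where the median level of this list (10.3) lay. The 3 were Rpl10a (-0.55), Rpl13a (-0.55) and Rpl37a (-0.42), and all 3 lost the call without a chamber control (limma adjusted p up to 0.069, 0.12 and 0.14).

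Protein synthesis and amino acid genes followed the same direction. Of 22 aminoacyl-tRNA synthetase genes, which charge tRNAs with amino acids, 14 were lower in the chamber (63.6%) and 0 higher (median -0.45). The shares of all genes were 6.52% and 2.35%. In the bin of highest signal, which held the median levels of this list (8.32) and of the translation factors (7.75), 13.8% were lower. Of the 22, 17 fell in the chamber, 2 in experiment 1 and 9 in experiment 2, against 19.5%, 14.6% and 10.7% of all genes. Against experiment 1 alone 17 of the 22 were lower and against experiment 2 alone 0, with 7.22% and 0.836% of all genes. Iars, for isoleucine (-0.66 ± 0.13), kept its call, while Tars (-0.72), Cars (-0.62) and Eprs (-0.61) lost it without a chamber control (limma adjusted p up to 0.058, 0.12 and 0.18). Of 40 translation factor genes 13 were lower (32.5%) and 0 higher. Eif4ebp1, which encodes a repressor of cap-dependent translation (-0.72), kept its call, and Eif4a2 (-0.73), Eif3a (-0.63) and Eif3j1 (-0.57) did not (limma adjusted p up to 0.083, 0.19 and 0.14).

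Atf4, the transcription factor of the integrated stress response that drives amino acid supply genes, had values of 11.19 and 11.18 in chamber controls and 10.46, 10.25 and 10.15 in chamber hypoxia. In experiment 1 they were 10.83 and 10.91 against 10.95, 11.24 and 11.09, and in experiment 2 they were 10.77 and 10.79 against 10.92, 10.87 and 10.78. Atf4 fell in the chamber by 0.90 and did not pass the test in either incubator experiment, and chamber arrays were the highest controls and the lowest hypoxia arrays (difference -1.05 ± 0.13, limma adjusted p = 0.00034). The array measures its RNA, whereas ATF4 is largely controlled at translation. Of 29 genes of this response and of amino acid supply, 8 were lower (27.6%) and 0 higher (median -0.35), against 6.52% and 2.35% of all genes. In the bin of highest signal, where the median level of this list (7.70) lay, 13.8% were lower. Of the 8, 3 kept the call and 5 were called with 21 arrays. Ddit3, which encodes the stress factor CHOP, rose by 0.56 in experiment 1 and 1.23 in experiment 2, with a change of 0.08 in the chamber that did not pass (difference -0.82), and kept its call. Cebpb (-1.06), a partner of ATF4, lost its call without chamber control 1 (limma adjusted p = 0.060), and the stress gene Nupr1 (-0.996) without either chamber control (limma adjusted p up to 0.069).

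Of 26 genes of the unfolded protein response, 3 were lower (11.5%) and 1 higher (3.85%), against 6.52% and 2.35% of all genes. In bin 4 of 5 by signal, where the median level of this list (7.51) lay, 10.2% were lower. Herpud1, which acts in the clearance of misfolded proteins at the endoplasmic reticulum, fell from 8.62 and 8.59 to 7.43, 7.56 and 7.48 in the chamber and from 8.45 and 8.67 to 8.05, 8.08 and 8.01 in experiment 2, with 8.31 and 8.22 against 8.41, 8.53 and 8.54 in experiment 1. The chamber hypoxia arrays were the lowest of all, and the difference of -0.97 ± 0.11 (limma adjusted p = 0.00021) kept its call. Ppp1r15a (-0.76) and Ppp1r15b (-0.56), which encode subunits that reverse the block on translation, were lower, and the disulfide isomerase gene P4hb (0.40) was higher; all 3 lost the call without chamber control 2 (limma adjusted p = 0.10, 0.078 and 0.19), P4hb without 12 arrays in all, and another P4hb probe set gave -0.01.

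Of 39 heat shock genes 9 were lower (23.1%) and 0 higher, and of 14 genes of the TRiC chaperonin and prefoldin, which fold actin and tubulin, 4 were lower (28.6%) and 0 higher, against 6.52% lower over all genes and 13.8% in the bin of highest signal, where the median level of these lists (7.98 and 7.997) lay. Hspa1b encodes the inducible heat shock protein HSP70. Its values were 5.23 and 5.25 in chamber controls and 4.99, 4.96 and 4.66 in chamber hypoxia, 5.22 and 4.74 against 5.76, 6.27 and 5.55 in experiment 1, and 5.22 and 5.27 against 6.10, 5.58 and 6.03 in experiment 2. It rose 1.70-fold in the incubator, and in the chamber every hypoxia array was below every control, a change that did not pass the test (limma adjusted p = 0.14). The difference of -1.14 ± 0.23 (limma adjusted p = 0.0072) lost its call without chamber control 2 (limma adjusted p = 0.058). The mitochondrial chaperone gene Hspa9 (-0.67), the ribosome-associated Dnajc2 (-0.66) and the prefoldin subunit gene Pfdn2 (-0.86) kept their calls. Hsph1, an HSP70 exchange factor gene, fell in each set, with log2 changes of -1.65, -0.54 and -1.14 (difference -0.81), and lost its call without chamber control 2 (limma adjusted p = 0.064). The chaperonin genes Cct4 (-0.61) and Cct8 (-0.50) and the prefoldin gene Vbp1 (-0.61) lost theirs too (limma adjusted p up to 0.11, 0.13 and 0.13).

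A heat shock element, GAANNTTC with N for any base, was found before the start of Hspa1b (RefSeq, GRCm38.p6, chr17:34959239-34959488, minus strand), and is shown in capitals because Hspa1b rose in the incubator alone by the test.
Hspa1b: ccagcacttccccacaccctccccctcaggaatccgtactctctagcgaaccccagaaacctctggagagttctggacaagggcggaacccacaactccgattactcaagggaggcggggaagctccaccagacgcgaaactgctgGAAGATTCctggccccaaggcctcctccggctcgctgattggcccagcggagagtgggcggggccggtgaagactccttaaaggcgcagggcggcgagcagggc
The element was found in the windows of 41.9% of heat shock genes, 5.66% of genes lower in the chamber, 4.08% of those higher and 7.25% of all genes.

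**Figure D4:**
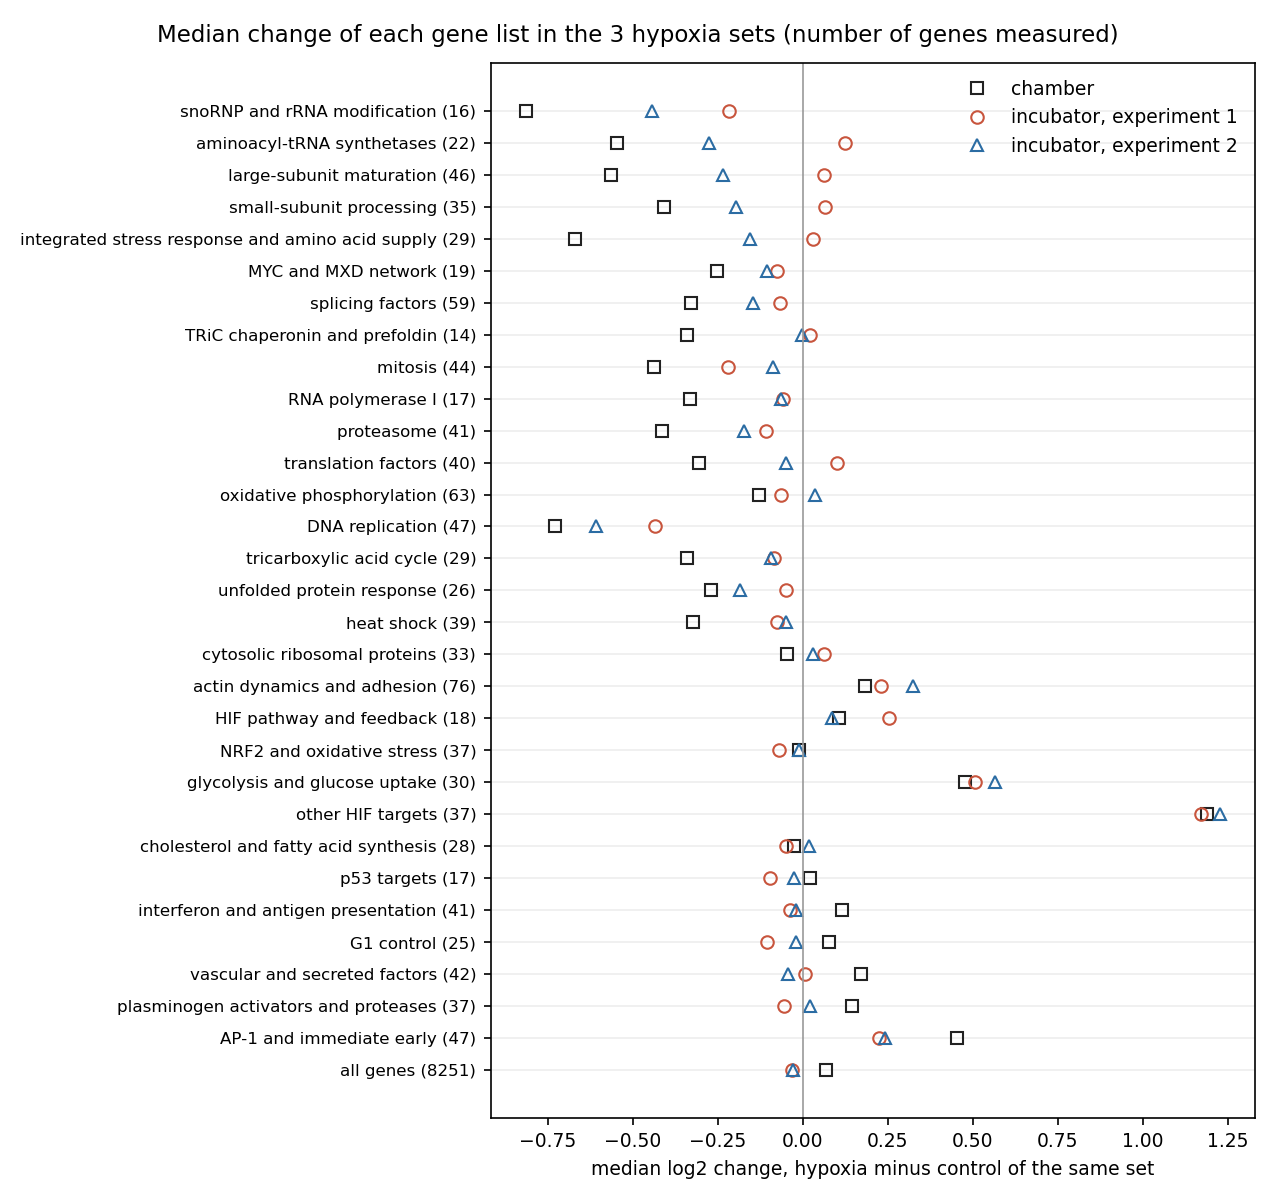
Median log2 change, hypoxia minus control of the same set, over the measured genes of 30 gene lists and of all genes, for the chamber (squares), experiment 1 (circles) and experiment 2 (triangles). The 3 sets nearly coincide for other HIF targets (1.19, 1.17 and 1.23), and the chamber lies lowest for the snoRNP genes (-0.82) and aminoacyl-tRNA synthetases (-0.55).

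In the list of AP-1 and immediate early genes, which holds transcription factors and other fast-responding genes, 5 of 47 were higher (10.6%) and 5 lower (10.6%), against 2.35% and 6.52% of all genes. Jun, a subunit of AP-1, had values of 5.50 and 5.59 in chamber controls and 7.20, 7.08 and 7.28 in chamber hypoxia, 5.91 and 6.20 against 6.77, 6.82 and 6.75 in experiment 1, and 6.03 and 6.00 against 7.07, 6.9996 and 6.84 in experiment 2. The chamber set had both the lowest controls and the highest hypoxia arrays, and Jun rose 3.13-fold there and 1.79-fold in the incubator (difference 0.81 ± 0.12, limma adjusted p = 0.0016). Nr4a1, an orphan nuclear receptor gene (0.76), kept its call like Jun. For Nr4a1 the control level differed between incubator experiments, at 6.65 and 6.68 in experiment 1 and 7.84 and 8.06 in experiment 2, and the chamber response differed from that of experiment 2 (limma adjusted p = 0.0028) but not of experiment 1 (0.21). Fos (0.81), the partner of Jun, showed the same: controls were at 8.19 and 8.03 in experiment 2 and between 5.56 and 5.76 in the other sets, another probe set gave 0.08, and the call was lost without 9 of the 15 arrays (limma adjusted p up to 0.16). On the lower side, Tgif1, a repressor of transforming growth factor signalling, rose by 1.59 in experiment 1 and 0.85 in experiment 2 and stood at 0.05 in the chamber (difference -1.17 ± 0.16, limma adjusted p = 0.00092), and the growth arrest gene Gadd45a rose by 1.57 and 0.60 and stood at 0.08 in the same order (-0.9999 ± 0.17); both kept their calls. The kinase genes Plk2 (-1.11) and Sgk1 (-0.84) lost theirs without chamber control 2 (limma adjusted p = 0.061 and 0.074).

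Growth control genes gave further differences. Mxd4, which encodes an antagonist of MYC, rose from 6.26 and 6.50 to 8.17, 7.76 and 8.15 in the chamber and from 6.61 and 6.52 to 7.78, 7.76 and 7.78 in experiment 2, with 6.95 and 7.06 against 7.34, 7.19 and 7.17 in experiment 1. Its response was higher in the chamber (0.93 ± 0.14, limma adjusted p = 0.0014), called against experiment 1 (limma adjusted p = 0.00014) and not against experiment 2 (limma adjusted p = 0.16). The MYC target gene Srm, of spermidine synthesis, fell with log2 changes of -1.66, -0.55 and -1.49 in the chamber and experiments 1 and 2 (difference -0.64), and kept its call as Mxd4 did. The MYC partner gene Max (-0.70) and Nme2 (-0.62) lost theirs without a chamber control (limma adjusted p up to 0.070 and 0.061). Of 25 G1 control genes 3 were higher (12%, against 2.35% of all genes), 0 lower and 22 not called, with a median difference of 0.08. The 3 were the D-type cyclin genes, which drive entry into the cell cycle: Ccnd2 by 0.79, Ccnd1 by 0.70 and Ccnd3 by 0.49. Ccnd1 fell by 0.89 in experiment 1 and fell by 0.36 in experiment 2 and stood at 0.08 in the chamber, whose 3 hypoxia arrays (7.87, 8.25 and 7.95) lay above all incubator ones (6.46 to 7.35). None of the 3 was called against experiment 2 alone (limma adjusted p = 0.17 for Ccnd1, 0.14 for Ccnd2 and 0.47 for Ccnd3). All 3 cyclin calls were lost without either chamber control (limma adjusted p up to 0.065 for Ccnd1, 0.10 for Ccnd2 and 0.12 for Ccnd3), and Ccnd2 alone of them was called with 21 arrays. Of 47 DNA replication genes 4 were lower (8.51%) and of 44 mitosis genes 2 (4.55%), against 6.52% of all genes. None of these kept the call, and the proliferation marker Mki67 gave -0.37 (limma adjusted p = 0.21). Most members lay below 0 all the same: 37 of the 47 and 38 of the 44, against 3511 of all 8251. Their medians were -0.21 and -0.28, against 0.05 over all genes. Control levels were higher in the chamber set for 15 of the 47 and 18 of the 44, against 8.24% of all genes.

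Plat had the largest difference on the higher side. It encodes tissue plasminogen activator, a secreted protease that activates plasmin. Its values were 5.28 and 5.07 in chamber controls and 7.06, 6.75 and 6.86 in chamber hypoxia, 5.39 and 5.39 against 5.99, 5.80 and 5.98 in experiment 1, and 5.70 and 5.60 against 6.60, 6.55 and 6.57 in experiment 2. Chamber controls were the lowest and chamber hypoxia arrays the highest, and Plat rose 3.27-fold there and 1.66-fold in the incubator (difference 0.98 ± 0.13, limma adjusted p = 0.00054). It kept its call and differed from each incubator experiment (limma adjusted p = 0.00017 and 0.020). Of 37 genes of plasminogen activation and extracellular proteolysis, 3 were higher (8.11%, against 2.35% of all genes) and 0 lower. The others of these 3, plasminogen itself (Plg, 0.62) and the membrane metalloprotease gene Mmp14 (0.55), lost their calls without 10 and 5 arrays (limma adjusted p up to 0.20 and 0.13). Another Plg probe set gave 0.11.

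Ache, the acetylcholinesterase gene, rose from 6.39 and 6.36 to 7.54, 7.58 and 7.73 in the chamber, with 6.64 and 6.48 against 6.89, 6.62 and 6.87 in experiment 1 and 6.39 and 6.65 against 6.996, 7.30 and 6.98 in experiment 2 (difference 0.84 ± 0.15, limma adjusted p = 0.0035). Its chamber hypoxia arrays exceeded all others and its call was kept, as was that of Cdc42se1, a gene for a small effector of CDC42 (0.67), which fell by 0.83 in experiment 1 and fell by 0.43 in experiment 2 and stood at 0.04 in the chamber. S100b, a calcium-binding protein gene used as a melanoma marker, rose by 1.10 in the chamber and 0.91 in experiment 2, with 0.02 in experiment 1 (difference 0.63, call kept). The other genes among the 15 highest, Tmem71 (0.79), Rgs11 (0.69), Ephb6 (0.67), Coasy (0.67), Ctrb1 (0.66) and Pqlc3 (0.66), lost their calls without a chamber control (limma adjusted p up to 0.051, 0.065, 0.081, 0.12, 0.066 and 0.18); other probe sets gave 0.28 for Rgs11, 0.27 for Ephb6 and -0.06 for Coasy.

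Non-coding and RNA-processing genes were among the lowest. Snhg1, a host gene of small nucleolar RNAs, fell from 7.56 and 7.63 to 6.00, 5.90 and 6.03 in the chamber, from 7.75 and 7.91 to 7.41, 7.64 and 7.14 in experiment 1, and from 7.01 and 7.20 to 6.51, 6.38 and 6.59 in experiment 2 (difference -1.10 ± 0.15, limma adjusted p = 0.00075). Epb41l4aos, a non-coding antisense transcript, fell by 0.25 in the chamber and rose by 1.19 and 0.53 in experiments 1 and 2 (difference -1.11 ± 0.10, limma adjusted p = 1.7e-05). Both kept their calls. Wtap, a gene of the messenger RNA methylation complex (-1.09), lost its call without chamber control 1 (limma adjusted p = 0.073), and another probe set gave -0.49. Of 59 splicing factor genes 11 were lower (18.6%) and 0 higher, with a median of -0.32, against 6.52% and 2.35% of all genes. In the bin of highest signal, where the median level of this list (7.66) lay, 13.8% were lower. Ddx5 (-0.95), Hnrnpa1 (-0.90), Hnrnpdl (-0.89) and Snrpg (-0.75) kept their calls, and other Hnrnpdl probe sets gave 0.13 and -0.22. Ddx5, an RNA helicase gene, fell from 7.50 and 7.40 to 6.9995, 7.01 and 7.22 in the chamber and rose from 6.75 and 7.15 to 7.38, 7.67 and 7.63 in experiment 1 and from 6.61 and 6.72 to 7.13, 7.37 and 7.16 in experiment 2. Its chamber controls were above all other controls, whereas the hypoxia arrays overlapped.

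Protein breakdown and mitochondrial genes had smaller shares lower in the chamber than the ribosome assembly lists together (47.8%). Of 41 proteasome genes 7 were lower (17.1%), of 29 tricarboxylic acid cycle genes 5 lower (17.2%) and 1 higher, and of 63 oxidative phosphorylation genes 5 lower (7.94%) and 1 higher, against 6.52% lower over all genes and 13.8% in the bin of highest signal, where the median level of these lists lay. No gene of these 3 lists kept its call. The cycle enzyme gene Dlst (-0.63), for example, lost it without chamber control 2 (limma adjusted p = 0.11). Of 37 genes of the oxidative stress response 3 were lower (8.11%). Among them Sod1, the cytosolic superoxide dismutase gene (-0.70), lost its call without chamber control 2 (limma adjusted p = 0.096). Of 28 genes of cholesterol and fatty acid synthesis 1 was higher (3.57%), Fasn (0.58), which lost its call without 8 arrays (limma adjusted p up to 0.20). Of 41 interferon and antigen presentation genes 2 were lower (4.88%) and 1 higher (2.44%). Of 17 p53 targets 2 were lower (11.8%), Gadd45a and Plk2 described above. Over all genes 6.52% were lower and 2.35% higher.

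The differences arose from control arrays as well as from hypoxia arrays. The control levels of the chamber set and the incubator sets differed for 1155 genes (14.0%; 8.24% higher and 5.76% lower in the chamber set) and the hypoxia levels for 1814 (22.0%; 9.49% higher and 12.5% lower), although all controls were kept at the same oxygen level. The first count dropped to 97 without chamber control 1 and to 112 without chamber control 2, so the split by level that follows rests on both of these arrays. Among the 538 genes lower in the chamber, 320 had only a hypoxia level that was lower by the test, 146 only a control level that was higher, 42 both and 30 neither. Among the 194 higher genes the same counts were 85, 69, 6 and 34. These counts favour the hypoxia arrays, of which each group has 3 against 2 controls. By size, the hypoxia difference was the larger for 322 of the 538 (59.9%) but for only 86 of the 194 (44.3%), whose median differences were -0.26 between controls and 0.22 between hypoxia arrays. By direction of response, 231 of the 538 fell in the chamber without a called change in the incubator, 131 rose in the incubator without one in the chamber, 97 fell in both, 39 fell in the chamber and rose in the incubator, 35 rose in both and 5 were called in neither. Of the 194, 123 rose in the chamber alone by the test, 32 fell in the incubator alone, 14 rose in both, 6 rose in the chamber and fell in the incubator, 3 fell in both and 16 were called in neither. In the incubator mean 14.1% of all genes rose and 18.4% fell, 32.6% in all.

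**Figure D5:**
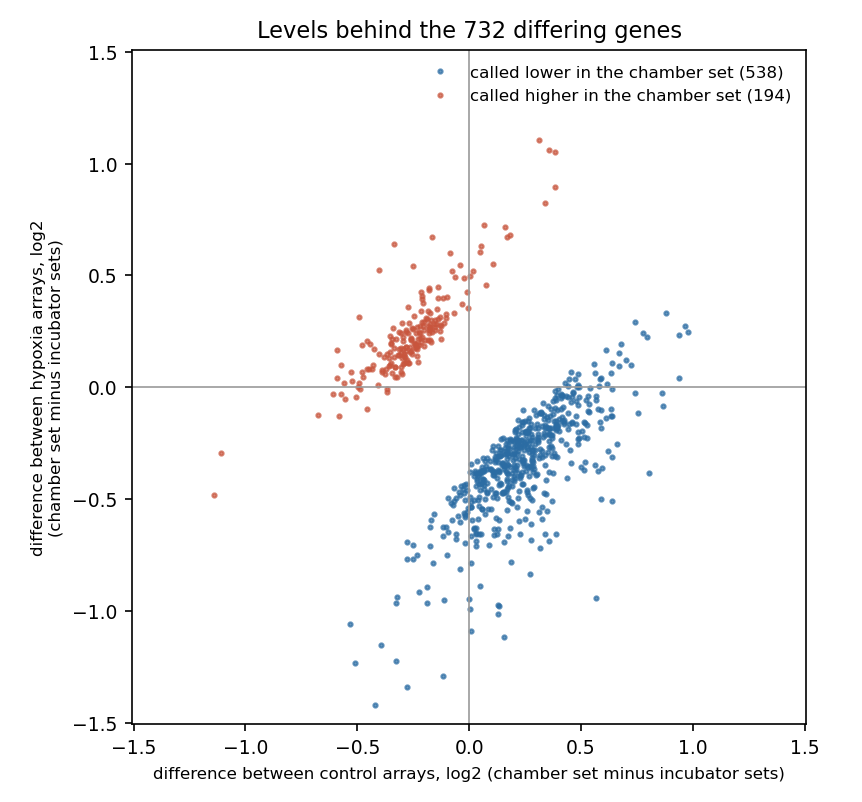
Each point is 1 of the 732 genes called for chamber minus incubator, with the log2 difference between control arrays on the x axis and between hypoxia arrays on the y axis (chamber set minus incubator sets). Of the 538 lower genes 146 differed by the control level alone and 320 by the hypoxia level alone; the empty diagonal band follows from the call, which needs both differences to be unequal.

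Markers of other cell types were checked on the same arrays. The mean over 15 fibroblast markers was 5.10 to 5.12 in chamber controls and 5.29 to 5.36 in chamber hypoxia, against 5.27 to 5.32 and 5.20 to 5.32 in experiment 1 and 5.28 and 5.25 to 5.36 in experiment 2. The chamber controls lay below all other arrays. They were also the lowest for 15 leukocyte markers (mean 4.33, against at least 4.42) and 13 epithelial markers (mean 4.06, against at least 4.16). Col1a2 (0.58, with another probe set at -0.03) and Col5a1 (0.51) were higher in the chamber, and all 15 differences were positive, as were 11 of 11 for endothelial, 14 of 15 for leukocyte, 12 of 13 for epithelial and 12 of 16 for melanocyte markers. Over all 8251 genes, 3511 differences were negative and most were thus positive. The median level was 7.69 for melanocyte markers and between 3.98 and 5.10 for the other lists, and the median difference of all genes was also positive at low signal. Cd3e of T cells was higher (0.41) and no endothelial or epithelial marker was called; the calls of Col1a2, Col5a1 and Cd3e were lost without a chamber control (limma adjusted p up to 0.12, 0.054 and 0.16). The part of other cells in the results was not tested.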

How the data were processed

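Total RNA of B16-F10 cells was hybridised to Affymetrix MG-U74Av2 arrays, and the authors deposited log2 values made with GCOS 1.2 and RMA, per the submitters' processing notes. The RMA release and number of runs were not given in the sources used here. Deposited log2 values were used without further scaling. Chamber controls were recognised by titles that carry no experiment number. In limma 3.58.1 (R 4.3.3), 1 mean per group was fitted to 15 arrays (9 residual degrees of freedom), contrasts were formed between changes, and p-values were adjusted by Benjamini-Hochberg over 10833 single-gene probe sets. A gene was called at an adjusted p under 0.05. Each gene was represented by its probe set of highest mean, which matters for the 2073 genes with several; 392 genes rest on sets that may detect related transcripts. Named were the 15 highest and 15 lowest differences among called genes, up to 4 called members of each list (up to 2 where none was called) and a few fixed genes. The members and lists were chosen with earlier results of these data known. The fit was tested on simulated data. Array medians lay between 5.44 and 5.52, and arrays of a group correlated at 0.993 to 0.998. Promoter sequences come from RefSeq (GRCm38.p6), which matched 6576 genes; the motifs were chosen after values were seen. Sequencing depth does not apply to arrays, and no protein sequences were used here. The alternatives were all arrays, scaling, filters, probe set rules, variance models, covariates, replicate number as a block, and leaving out each array.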

Additional observations from a re-analysis of the deposited data

Results flagged for a closer look

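Responses differed between sets under the same contrast for 732 genes (chamber minus incubator), 865 (chamber minus experiment 1), 86 (chamber minus experiment 2) and 87 (experiment 1 minus experiment 2), by limma's test of the difference itself.

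For 10 named genes the chamber change and the mean incubator change were each called, in opposite directions, as was the difference between them. Ddx5 (-0.95), Dnttip2 (-0.80), Eif4ebp1 (-0.72), Epb41l4aos (-1.11), Hnrnpdl (-0.89), Nifk (-1.03), Ppp1r15b (-0.56), Rsl1d1 (-0.91) and Wtap (-1.09) were lower in the chamber, and the transaminase gene Got2 (0.49) was higher. Of these, Got2, Ppp1r15b and Wtap lost the call without a chamber control (limma adjusted p up to 0.11, 0.078 and 0.073). Another Got2 probe set gave 0.14.

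Among the 1589 probe sets without a single gene name, which entered no count above, 66 (4.15%) were called for chamber minus incubator, 28 higher and 38 lower. No group held enough arrays for a search for single outlying arrays.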

How the results depend on the processing

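The count of 732 genes kept its size within 1.5 times after median centring (938), quantile normalisation (626), cyclic loess (737, added after seeing the data), with the mean of probe sets (802), 1 probe set per gene (1024), a variance trend (980), the Actb covariate (610) and the replicate block (890). It moved to 118 (18 higher, 100 lower) with all 21 arrays, 1258 (434 and 824) without low probe sets, 1591 (650 and 941) with array weights, and 363 (80 and 283) with the spike-in covariate, added after seeing the data. Median centring moved the higher count to 112 and the lower to 826, 1 probe set per gene the higher count to 338 and the replicate block to 292. With all 21 arrays the counts were 279 against experiment 1, 6 against experiment 2, 21 between experiments 1 and 2, 243 for control levels and 1038 for hypoxia levels. Chamber minus experiment 2 gave 233 without low probe sets, 148 with 1 probe set per gene, 159 with the variance trend, 308 with array weights, 16 with the Actb covariate and 41 with the spike-in covariate. Experiment 1 minus experiment 2 gave 51 after median centring and 164, 138, 139, 50, 17 and 37 in the same order, and 29 with the replicate block. Chamber minus experiment 1 gave 386 with the spike-in covariate, and control levels 2363 with array weights and 495 with the Actb covariate. The cause of these moves was not tested; fewer probe sets are tested without low ones. No called named gene changed sign. For experiment 1 minus experiment 2 the larger direction, 28 higher and 59 lower, turned after median centring (27 and 24) and with the Actb covariate (9 and 8), and for control levels, 680 and 475, with array weights (1156 and 1207).

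Leaving out each array gave 108 to 1033 genes for chamber minus incubator (12 to 360 higher, 96 to 673 lower), 332 to 1052 against experiment 1, 6 to 230 against experiment 2, 19 to 120 between experiments 1 and 2, 97 to 1614 for control levels and 1066 to 1901 for hypoxia levels. Control and hypoxia arrays of a set that share a replicate number had residual correlations from -0.08 to 0.32. Those with different numbers had -0.32 to 0.30. With 2 controls per set the residuals of 1 control mirror those of the other, so these values cannot decide whether arrays were paired. The numbers were not treated as pairs outside the replicate block, which could not be fitted for level contrasts.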
